A study of Homo sapiens with 4 samples.

Results

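MYC and 40 genes of ribosome biogenesis were examined in U87 cells with reduced PTPRN. PTPRN is a receptor-type protein of the tyrosine phosphatase family in secretory granules, and the study describes its phosphatase domain as inactive. The 41 genes were taken by symbol from the table of gene expression values, which lists 19314 genes, and all 41 had a value in every library. They were chosen as a pathway, by a rule that uses no measured value, although earlier results of these data were known when the list was made. U87 is an established cell line from a human malignant glioma. RNA was sequenced from 2 libraries of U87 cells labelled PTPRN knockdown, which carried the hairpin shPTPRN-2, and from 2 libraries labelled SCR, which carried a scrambled hairpin (shScr). The knockdown therefore rests on 1 hairpin in 1 cell line. The labels do not say whether the libraries of a group came from separate cultures, so p-values measure only the spread between these libraries, which may be technical. The growth protocol names the brain endothelial line hCMEC/D3 in DMEM/F12 with B27, insulin, EGF and bFGF, while the cell line label is U87.

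Ribosomes are built in the nucleolus. RNA polymerase I copies the ribosomal DNA into a long precursor, small nucleolar RNPs (snoRNPs) modify and help to cut it, and assembly factors fold the pieces with ribosomal proteins into the small and the large subunit. MYC is a transcription factor that binds DNA with its partner MAX, often at the E-box CACGTG, and genes of ribosome biogenesis are among its best known targets. Tumour cells commonly have enlarged nucleoli.

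Values are FPKM, the fragments of a gene scaled by the length of its transcript and by the size of the library. The depth was estimated from the steps between low values as 18200000 to 19800000 reads per library, and the gene with the fewest reads among the 41, DDX10, had about 239 in its lowest library. PTPRN itself was at an FPKM of 12.09 and 11.68 with shPTPRN-2 and at 84.84 and 85.02 with shScr, which follows the labels. All 8 markers of the U87 line reached an FPKM of 10 in at least 1 library, and CDKN2A and MTAP, of a locus deleted in this line, were at 0.34 or less. The markers themselves moved with the knockdown, 3 higher and 5 lower with 6 of the 8 past a 2-fold change and an adjusted p of 0.001 in limma, and NES reached only 3.12 and 3.39 with shPTPRN-2 against 12.96 and 14.24 with shScr. Of the 10 endothelial markers, 0 reached it, and the highest was PECAM1 at 2.5, with CDH5 at 0.03 or less. Myeloid and epithelial markers stayed under 10 as well. The summed epithelial markers, mostly KRT8 and KRT18, were at 2.95 and 3.21 with shPTPRN-2 and at 10.05 and 10.08 with shScr. The part of this difference in the results was not tested. In bulk RNA, a lower share of cells that express a gene and less of its RNA per cell cannot be told apart.

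Most of the 41 genes were higher in the knockdown libraries. With limma on log2(FPKM + 1), 33 of the 41 rose, 2 fell and 6 did not pass an adjusted p of 0.05. Over all 16595 genes tested, 30.8% passed as higher and 27.1% as lower. Over the 11272 genes whose mean FPKM reached 1, a level that each of the 41 exceeded, 41.1% passed as higher and 33.5% as lower. The median log2 fold change of the 41 was 0.60, beside 0.01 over all genes tested and 0.06 over the genes that reached this level. Both shPTPRN-2 libraries lay above both shScr libraries for 39 of the 41 and below them for the other 2, so the groups overlapped for none of the 41. Over all genes, 39.7% had both shPTPRN-2 libraries above both shScr libraries, 35.8% had both below, and 75.6% did not overlap in either direction. Over the genes whose mean FPKM reached 1, 49.0% lay above and 89.2% did not overlap. Groups without overlap were thus common at this level.

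The changes were mostly under 2-fold. The study called genes differential from a 2-fold change and a false discovery rate of 0.001, and the same limits, on this scale and with limma's adjusted p, were reached by 3 of the 41, namely NPM1, RRP1 and NOP58, where 2.63% of all genes passed as higher. By the same thresholds 0 of the 41 fell, where 4.06% of all genes did. In either direction, 1111 of all 16595 genes tested passed these limits. Among the 11272 genes whose mean FPKM reached 1, as it did for each of the 41, 1079 passed them. The 3 of 41, all of them higher, were thus not above the share for both directions together at this level. The share that passed as higher alone was not computed at this level. RRP12, GNL2 and NOP2 lay just outside at log2 fold changes of 1.00, 0.99 and 0.97, with mean FPKM ratios of 2.12, 2.04 and 2.01. This count was 0 when any library was left out and went from 0 to 6 over the other settings. Summed over the 41 genes, the FPKM came to 2244 and 2242 with shPTPRN-2 and to 1358 and 1323 with shScr. That was 0.505% and 0.511% of the total FPKM, against 0.32% and 0.315%. NPM1 alone made up a large part of it, and without NPM1 the sums were 1441 and 1443 against 1004 and 977.9. For comparison, the share of the 10 highest genes was 8.61% and 8.37% in the knockdown libraries and 12.2% and 12.3% in the control libraries.

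**Figure D1:**
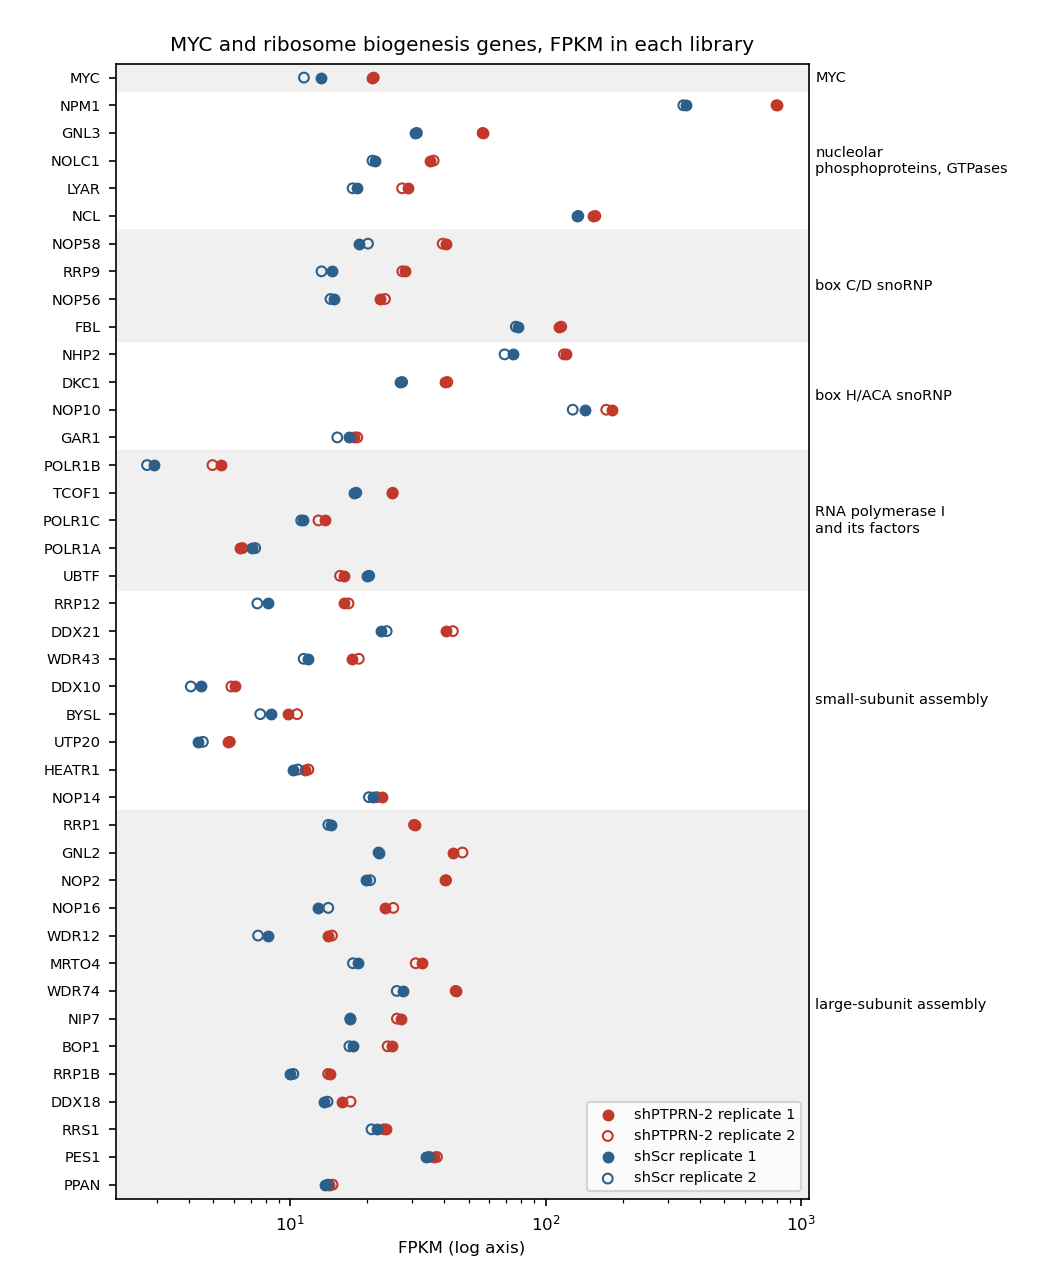
FPKM of the 41 genes in each of the 4 libraries (x axis, log scale), ordered by role. Each point is 1 library, red for shPTPRN-2 and blue for shScr, filled for replicate 1 and open for replicate 2. NPM1 lies farthest to the right, at 802.66 and 799.06 against 354.24 and 345.13, and for UBTF and POLR1A the blue points lie to the right of the red ones.

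MYC was at an FPKM of 20.94 and 21.22 with shPTPRN-2 and at 13.18 and 11.31 with shScr. Both shPTPRN-2 values lay above both shScr values, and the shScr libraries differed more from each other for MYC than for any other of the 41 genes (SD of 0.144 on the log2 scale, where the median gene had 0.037). The mean was 21.1 ± 0.198 (SD, n = 2) against 12.2 ± 1.32 (SD, n = 2), a ratio of 1.72. MYC rose by this comparison, with a log2 fold change of 0.74 (SE 0.08) and an adjusted p of 0.0035 in limma. The change was similar when a shPTPRN-2 library was left out, but the call was lost, at 0.75 (adjusted p = 0.076 in limma) without replicate 1 and 0.73 (adjusted p = 0.0782 in limma) without replicate 2.

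The proteins around MYC did not move in 1 direction. Of the 21 genes of a MYC network list with a value, 7 rose, 8 fell and 6 did not pass, with a median log2 fold change of 0.07. These counts and the median lay near those of all genes at a mean FPKM of 1 or more, of which 41.1% rose and 33.5% fell. MAX, the obligate partner of MYC, was at 29.14 and 27.45 with shPTPRN-2 and at 35.67 and 34.33 with shScr, and fell (log2 fold change -0.30, adjusted p = 0.00908 in limma). The MXD proteins, MXI1 and MNT compete with MYC for MAX and repress transcription at E-boxes. MXD4 fell from 28.87 and 26.37 with shScr to 12.45 and 12.36 with shPTPRN-2 (log2 fold change -1.09, adjusted p = 0.000639 in limma). MXI1 fell from 17.12 and 16.28 to 8.62 and 8.40 (log2 fold change -0.90, adjusted p = 0.000537 in limma). For both genes the groups lay far apart. MNT fell as well, by 0.22 on the log2 scale, while MXD1, at an FPKM of only 3.17 and 3.05 with shPTPRN-2, rose by 0.60. MXD3 (0.08) and MGA (-0.11) did not pass.

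Other proteins of the network act on MYC itself or on related dimers. FBXW7 and HUWE1, ubiquitin ligases with MYC among their substrates, fell by 0.43 and 0.48 on the log2 scale. PIM1, also on the network list, fell by 0.22 (adjusted p = 0.00895 in limma). USP28, on the same list at an FPKM of 0.8 or less, did not pass (log2 fold change 0.03, adjusted p = 0.763 in limma). KIAA1524, also called CIP2A, an inhibitor of the phosphatase that acts on MYC, rose by 1.00, from 6.46 and 7.17 to 14.3 and 14.83. RUVBL1 and RUVBL2, ATPases that bind MYC and also serve snoRNP assembly, rose by 0.44 and 0.69. MLXIP, a glucose-responsive relative that pairs with MLX, fell by 0.70. Its paralogue MLXIPL, at low levels, went the other way, from 0.06 and 0.14 to 1.47 and 1.61 (log2 fold change 1.21, adjusted p = 0.000574 in limma), and MLX rose by 0.17 (adjusted p = 0.0204 in limma). MYCL was close to 0 in all libraries, at 0.26 or less, and MYCN was listed without a value.

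**Figure D2:**
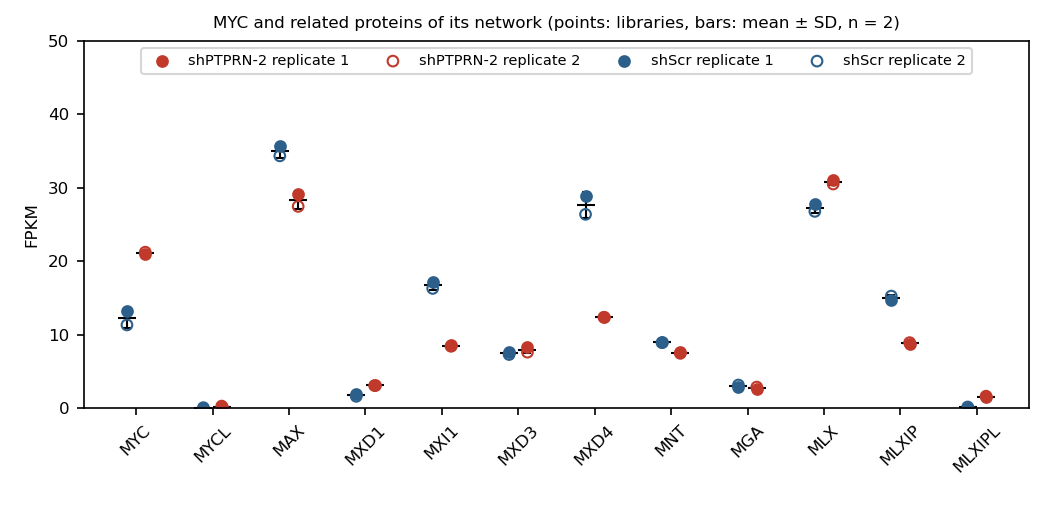
FPKM of MYC and of related proteins of its network (y axis, linear scale from 0). Points are libraries, red for shPTPRN-2 and blue for shScr, and bars are the mean ± SD (n = 2). MYC lies higher with shPTPRN-2, while MAX, MXI1, MXD4, MNT and MLXIP lie lower, and MXD1, MLX and MLXIPL higher. MLX and MLXIPL were added to the plot after their values had been seen.

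The E-box CACGTG was common near the start sites of the 41 genes. RefSeq start-site windows on GRCh38.p14, from 250 bases before to 50 bases after an annotated start, were at hand for 32 of the 41 genes, and 15 of the 32 (46.9%) held the motif. Its letters read the same on both strands. Of all genes tested, 1545 of 13258 with a window (11.7%) held it, and 13% of those whose mean FPKM reached 1. In 14 of the 15 members (93.3%) an E-box lay between 35 bases upstream and 40 bases downstream of the start, a stretch chosen after the positions had been seen, against 29.8% of all genes with the motif. The sites below are shown because they belong to the E-box genes with the largest rises and to the 3 with an E-box whose change did not pass. Capitals mark the motif, and 12 bases on either side are given 5′ to 3′ on the strand of the gene, fewer for NOP2 where the window ends.
GNL2, chr1:37595917-37595946, minus strand: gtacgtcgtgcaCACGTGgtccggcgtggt
NOP2, chr12:6568242-6568268, minus strand: aggtccggattgCACGTGgagggccgc
RRP9, chr3:51941892-51941921, minus strand: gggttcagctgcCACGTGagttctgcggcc
GNL3, chr3:52686026-52686055, plus strand: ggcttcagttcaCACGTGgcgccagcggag
DDX21, chr10:68956604-68956633, plus strand: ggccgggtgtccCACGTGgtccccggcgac
MRTO4, chr1:19251807-19251836, plus strand: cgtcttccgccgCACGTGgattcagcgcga
GAR1, chr4:109815781-109815810, plus strand: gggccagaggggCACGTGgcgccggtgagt
NOP14, chr4:2963374-2963403, minus strand: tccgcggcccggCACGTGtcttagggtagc
PES1, chr22:30591880-30591909, minus strand: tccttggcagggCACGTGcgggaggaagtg

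The motif did not sort the genes by their change. The 15 genes with an E-box changed by a median of 0.60 (log2), and 12 rose and 0 fell. The 17 genes whose windows held none had a median of 0.61, and 13 rose and 2 fell. NPM1 and RRP1, with the largest changes of the 41, had windows without the motif, which says only that these letters were not in those windows. Over all genes tested the medians were 0.02 with and 0.01 without it.

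Nucleolar phosphoproteins and GTPases all rose, 5 of 5, with a median log2 fold change of 0.73. NPM1, the histone and ribosome chaperone of the outer nucleolus, was at 802.66 and 799.06 with shPTPRN-2 and at 354.24 and 345.13 with shScr. It had both the highest level and the largest rise of the 41 genes, with means of 801 ± 2.55 and 349.7 ± 6.44 (SD, n = 2), a log2 fold change of 1.19 (SE 0.03) and an adjusted p of 0.000294 in limma. GENCODE 29 names 45 pseudogenes of NPM1, so reads of NPM1 could be split with near copies. GNL3, the GTPase nucleostemin, was at 56.72 and 56.56 against 30.68 and 31.29 (log2 fold change 0.85, adjusted p = 0.000394 in limma). NOLC1, which shuttles snoRNPs into the nucleolus, was at 35.34 and 36.39 against 21.42 and 20.97, and LYAR, a nucleolar zinc-finger protein, at 28.92 and 27.39 against 18.3 and 17.54. They rose by 0.73 and 0.62 on the log2 scale. NCL, nucleolin, was as abundant as 152.72 and 156.19 but rose the least of these genes, from 132.58 and 134 (log2 fold change 0.21, adjusted p = 0.00784 in limma). The NCL call was lost with quantile normalization (0.06, adjusted p = 0.269 in limma), and without shScr replicate 1 (adjusted p = 0.0563 in limma) or replicate 2 (adjusted p = 0.0517 in limma).

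The box C/D snoRNP guides 2′-O-methylation of ribosomal RNA, and the 4 of its protein genes among the 41 rose, with a median of 0.79. SNU13, another core protein of the particle, is not among the 41 and did not pass (log2 fold change 0.14, adjusted p = 0.143 in limma). It was named after its value had been seen. NOP58, a core protein of the particle, went from 18.61 and 20.14 with shScr to 40.84 and 39.47 with shPTPRN-2 (log2 fold change 1.02, SE 0.05, adjusted p = 0.000669 in limma). RRP9, the U3-specific protein of the particle that acts in the first cuts of the precursor, went from 14.57 and 13.25 to 28.03 and 27.44 (log2 fold change 0.95, adjusted p = 0.000859 in limma). NOP56, the partner of NOP58, went from 14.77 and 14.37 to 22.51 and 23.47, and FBL, the methyltransferase fibrillarin, from 77.72 and 76.28 to 112.34 and 114.89. Their log2 fold changes were 0.62 and 0.56.

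The box H/ACA snoRNP guides pseudouridylation, and 3 of its 4 core protein genes rose, with a median of 0.48. NHP2, an RNA-binding core protein, was at 120.26 and 117.72 against 74.47 and 68.94 (log2 fold change 0.72, adjusted p = 0.00122 in limma). Of its 1510 exon bases, 414 lie opposite exons of RMND5B. DKC1, the pseudouridine synthase dyskerin, was at 40.23 and 41.17 against 26.83 and 27.4 (log2 fold change 0.57, adjusted p = 0.000809 in limma). NOP10, which binds the catalytic domain of dyskerin, was at 181.68 and 172.35 against 142.01 and 127.41 (log2 fold change 0.39, adjusted p = 0.0132 in limma). The NOP10 call was lost when a library of shPTPRN-2 or shScr replicate 2 was left out, at adjusted p-values of 0.138, 0.108 and 0.0745 in limma. GAR1, the fourth core protein, did not pass, at 17.71 and 18.29 against 17 and 15.27 (log2 fold change 0.15, 95% interval from -0.03 to 0.33, adjusted p = 0.119 in limma).

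RNA polymerase I and its factors were the only one of these role groups in which genes passed in both directions, 3 of 5 higher and 2 lower, with a median of 0.24. POLR1B, a core subunit of the enzyme, rose from 2.92 and 2.75 to 5.35 and 4.96 (log2 fold change 0.68, adjusted p = 0.00134 in limma). TCOF1, the nucleolar protein treacle, rose from 17.82 and 18.12 to 25.04 and 25.16 (log2 fold change 0.46, adjusted p = 0.00101 in limma). POLR1C, a subunit shared with RNA polymerase III, rose from 11.25 and 11.03 to 13.72 and 12.89 (log2 fold change 0.24, adjusted p = 0.0141 in limma). UBTF, the factor that binds active ribosomal DNA along its length, was lower with shPTPRN-2, at 16.25 and 15.66 against 20.05 and 20.36 (log2 fold change -0.32, SE 0.03, adjusted p = 0.00334 in limma). POLR1A, the largest and catalytic subunit, was at 6.33 and 6.5 against 7.08 and 7.29 (log2 fold change -0.14, adjusted p = 0.0285 in limma). For both genes the shPTPRN-2 values lay below the shScr values. The POLR1A call held under only 4 of 11 alternative settings, with a change between -0.21 and -0.12, and was lost when any library was left out, at adjusted p-values of 0.0746 to 0.109. The UBTF call was lost without shScr replicate 2 (adjusted p = 0.0509 in limma), and that of POLR1C without shPTPRN-2 replicate 1, shScr replicate 1 or shScr replicate 2 (adjusted p-values of 0.0524, 0.111 and 0.126 in limma).

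Of the 8 genes of small-subunit assembly, 6 rose and 2 did not pass, with a median of 0.36. RRP12, needed for export of the subunits, was at 16.28 and 16.9 with shPTPRN-2 and at 8.2 and 7.43 with shScr (log2 fold change 1.00, SE 0.06, adjusted p = 0.000825 in limma). DDX21, an RNA helicase of the nucleolus, was at 40.66 and 43.28 against 22.59 and 23.83 (log2 fold change 0.83, adjusted p = 0.000932 in limma). WDR43, a subunit of the small-subunit processome that forms on the new precursor, was at 17.4 and 18.54 against 11.73 and 11.28 (log2 fold change 0.60, adjusted p = 0.00154 in limma). The shPTPRN-2 values of these 3 genes were well clear of the shScr values. The helicase DDX10, the late factor BYSL and UTP20, a large scaffold of the processome, rose by less, with log2 fold changes of 0.41, 0.31 and 0.31. HEATR1 and NOP14, both also of the processome, had log2 fold changes of 0.13 (95% interval from 0.02 to 0.24, adjusted p = 0.0515 in limma) and 0.10 (95% interval from -0.01 to 0.22, adjusted p = 0.0926 in limma). HEATR1 shares 2095 of its 9049 exon bases with LGALS8 on the opposite strand, and use of strand in counting is not stated. BYSL was no longer called when any library was left out (adjusted p-values of 0.0936 to 0.155), DDX10 without shPTPRN-2 replicate 1 or 2 (0.0777 and 0.0689) and UTP20 without shPTPRN-2 replicate 2 (0.0532). HEATR1 passed when only genes of at least FPKM 1 were tested (adjusted p = 0.049 in limma).

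Large-subunit assembly held 14 of the genes, of which 11 rose and 3 did not pass, with a median of 0.66. RRP1, a factor of early large-subunit particles, was at 30.77 and 30.49 with shPTPRN-2 and at 14.41 and 14.09 with shScr (log2 fold change 1.05, SE 0.03, adjusted p = 0.000331 in limma). GNL2, a GTPase of subunit maturation, was at 43.34 and 47.17 against 22.27 and 22.15 (log2 fold change 0.99, adjusted p = 0.000702 in limma). NOP2, a cytosine methyltransferase of the large-subunit RNA, was at 40.29 and 40.71 against 19.77 and 20.54 (log2 fold change 0.97, adjusted p = 0.000399 in limma). Each of these genes stood at about 2 times its level in the scrambled control. GENCODE 29 places a second protein-coding gene, AC006064.6, on 2550 of the 4687 exon bases of NOP2 on the same strand, so reads of the 2 could not be told apart there. NOP16, MRTO4, WDR74 and NIP7, further factors of the large subunit, rose with log2 fold changes of 0.82, 0.79, 0.71 and 0.61. NIP7 shares 957 of its 4749 exon bases with COG8 on the opposite strand. RRP1B, a relative of RRP1, rose by 0.45, from 9.98 and 10.28 to 14.28 and 14.06, less than RRP1. The helicase DDX18 rose by 0.25, a call lost without shPTPRN-2 replicate 2 or either shScr library (adjusted p-values of 0.0642, 0.15 and 0.125 in limma).

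The PeBoW complex joins PES1, BOP1 and WDR12 in large-subunit processing, and its 3 genes differed in their change. WDR12 was at 14.02 and 14.56 against 8.15 and 7.48 and rose by 0.80 on the log2 scale (adjusted p = 0.00109 in limma). BOP1 was at 25.06 and 24.04 against 17.66 and 17.03 and rose by 0.48 (adjusted p = 0.00179 in limma). PES1 was at 36.47 and 37.5 against 34.01 and 34.98, a difference of 0.10 that did not pass (adjusted p = 0.0824 in limma). The 95% interval of WDR12, from 0.65 to 0.95, lay above that of BOP1, from 0.37 to 0.59, but the difference between the genes was not tested.

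RRS1, which brings the 5S RNP into the large subunit, and PPAN, a pre-ribosomal processing factor, did not pass either. RRS1 was at 23.75 and 23.26 against 21.89 and 20.79 (log2 fold change 0.13, adjusted p = 0.0533 in limma), and it passed when only genes of at least FPKM 1 were tested (adjusted p = 0.0465 in limma) and with a variance trend (adjusted p = 0.0408 in limma). PPAN was at 14.19 and 14.64 against 13.67 and 14.05 (log2 fold change 0.05, adjusted p = 0.28 in limma), and median-ratio scaling turned its sign (-0.02, adjusted p = 0.678 in limma). PPAN shares 1447 of its 2583 exon bases with the readthrough gene PPAN-P2RY11. That readthrough gene was at 6.24 and 5.47 against 12.4 and 11.46, with a log2 fold change of -0.92 (adjusted p = 0.00182 in limma). How reads were divided between PPAN and its readthrough gene was not tested, so the value of PPAN is uncertain.

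**Figure D3:**
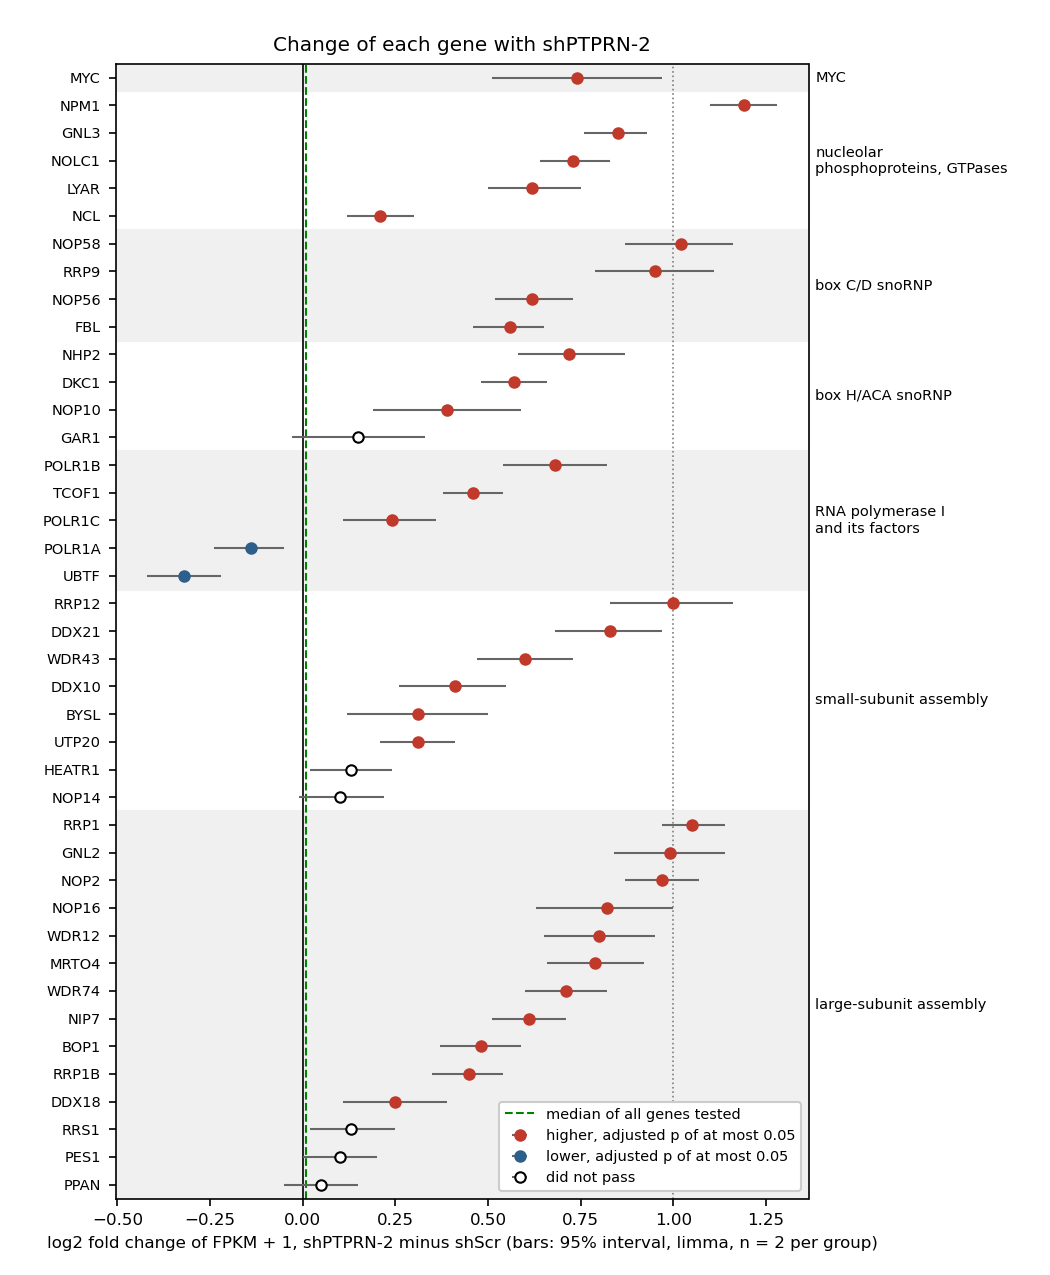
Log2 fold change of FPKM + 1 for each of the 41 genes, shPTPRN-2 minus shScr (x axis), by role. Points are limma estimates with bars for the 95% interval (n = 2 per group), red for genes that rose, blue for genes that fell and open for those that did not pass. The green dashed line is the median of all genes tested (0.01) and the dotted line a log2 fold change of 1.

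Several of the genes carry the RNAs that their own pathway uses. In GENCODE 29, 7 of the 41 genes (17.1%) hold named snoRNA genes on their strand, against 133 of 16112 tested protein-coding genes (0.825%). They are NOP56 with 5, NCL, GNL3, NOP58 and WDR43 with 3 each, and DKC1 and PPAN with 2 each. NOP56 and NOP58, for example, hold box C/D snoRNAs such as SNORD57 and SNORD11, which are of the class that their proteins bind. The log2 fold changes of the 7 host genes had a median of 0.60, and 6 of the 7 rose. The 126 other host genes tested had a median of 0.31, with 74 higher and 23 lower. Beside these counts, 30.8% of all genes tested passed as higher and 27.1% as lower. Among genes whose mean FPKM reached 1, the shares were 41.1% and 33.5%. The values are those of the host genes, and the mature snoRNAs were not analysed here.

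Further genes of the pathway, from lists without the 41 genes, were also mostly higher. Over 4 lists of 168 genes, 125 rose, 9 fell and 34 did not pass, with a median log2 fold change of 0.49. Beside this and the list counts below, 30.8% of all genes tested passed as higher and 27.1% as lower. Over the genes whose mean FPKM reached 1, these shares were 41.1% and 33.5%. In large-subunit assembly 47 of 58 rose and 0 fell (median 0.54). The largest changes were those of NOC2L, BRIX1 and GTPBP4, factors of early nuclear pre-ribosomes, with 64.37 and 66.3 against 22.8 and 22.99 for NOC2L and log2 fold changes of 1.47, 1.45 and 1.42. These rises were larger than that of any of the 41 genes.

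In the small-subunit processome and its later steps, 41 of 55 rose and 5 fell (median 0.46). EMG1, a pseudouridine methyltransferase, WDR3 and UTP14A, both of the processome, rose by 1.00, 0.93 and 0.93. RIOK1, a late kinase, WDR46 and RRP36 fell by 0.71, 0.32 and 0.29. Of the exosome and the nucleases that trim the precursor, 21 of 27 rose and 1 fell (median 0.62). EXOSC4, an exosome core subunit, and SKIV2L2, the nuclear exosome helicase MTR4, rose by 0.97 and 0.92, and RPP30, a subunit of RNase P and MRP, by 0.87. RPP40, another subunit of both enzymes, was the gene that fell (log2 fold change -0.55, adjusted p = 0.0104 in limma).

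Transcription by RNA polymerases I and III had the smallest share of higher genes of the 4 biogenesis lists, with 16 of 28 higher, 3 lower and 9 that did not pass (median 0.25). POLR3K and POLR3F, subunits of RNA polymerase III, rose by 1.15 and 0.71, and TAF1D, a subunit of the polymerase I selectivity factor, by 0.88. The polymerase III factors BRF1 and GTF3A fell by 0.47 and 0.19. The genes of ribosome biogenesis by KEGG in the deposited annotation were a list taken up after the data had been seen. That list also holds genes of unclear relation to the pathway. It gave 48 higher and 15 lower of 87 tested (median 0.29). This list and the polymerase list stand beside 41.1% higher and 33.5% lower over the genes whose mean FPKM reached 1.

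Of 40 other known targets of MYC, mostly outside ribosome biogenesis, 27 rose, 4 fell and 9 did not pass, with a median of 0.42. Over the genes whose mean FPKM reached 1, 41.1% rose and 33.5% fell. EXOSC7, an exosome subunit that did not pass, was in both this list and that of the exosome. ODC1, the first enzyme of polyamine synthesis, was at 93.81 and 91.61 with shPTPRN-2 and at 8.77 and 8.76 with shScr, a log2 fold change of 3.26 (adjusted p = 0.000118 in limma). CDC25A, a cell cycle phosphatase, and E2F1, a transcription factor of S phase entry, rose by 1.58 and 1.05. LDHA, lactate dehydrogenase, went the other way, at 944.02 and 952.36 against 1883.23 and 1944.78 (log2 fold change -1.01, adjusted p = 0.000364 in limma). SHMT1, of one-carbon metabolism, and UNG, a DNA repair glycosylase, fell by 0.51 and 0.36. E-boxes were found in 17 of the 35 target genes with a window (48.6%) and in 41 of 145 genes of the 4 biogenesis lists (28.3%).

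**Figure D4:**
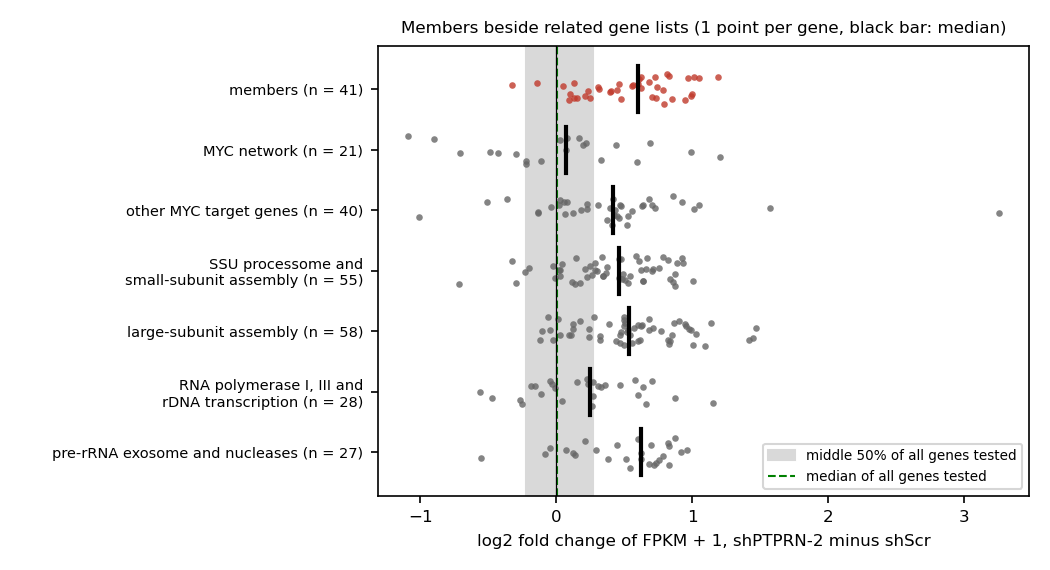
Log2 fold change of FPKM + 1, shPTPRN-2 minus shScr (x axis), for the 41 genes (red) and for the related lists (grey), 1 point per gene with a black bar for the median. The grey band holds the middle 50% of all genes tested. The median of the 41 genes is 0.60 and that of the MYC network 0.07, and ODC1 is the point at 3.26.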

How the data were processed

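RNA from 4 libraries of U87 cells, 2 per group, was read single-end (50 bases, BGISEQ-500). The authors deposited FPKM values per gene and library, on which this report rests, and the 66380 values given in both deposited tables were identical. The submitters' processing notes name HISAT2 2.1.0 and hg19, but gene positions in the deposited tables lie on GRCh38 for all 41 members. The counting program is not given in the sources used here. The deposited log2 fold changes, p-values, q-values and false discovery rates of the authors' own comparisons, and their group means, were not used. No counts were given, so depth was estimated from the steps of low FPKM in short genes, where 71.4% to 78.2% of values lay within 0.1 of a whole read. FPKM precision is limited by that depth and by 2 libraries per group.

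All 16595 genes that were above 0 in 1 or more libraries entered a fit with limma 3.58.1 (R 4.3.3; lmFit and eBayes, default options) on log2(FPKM + 1), shPTPRN-2 against shScr, with Benjamini-Hochberg adjustment over all of them. Fold changes are on that scale, which understates those of low genes. The script was tested on simulated data. The members and lists were chosen with earlier results of these data known. All members were described, and of each other list the 3 largest rises and falls past an adjusted p of 0.05 whose higher group had a mean FPKM of 5 or more. MAX, MYCN, MYCL and the MXD, MNT and MGA genes were named as well. FBXW7, HUWE1, PIM1, USP28, MLXIPL and MLX were named after their values were seen. Some genes that these rules pick are left out of the text. Sites were read from RefSeq windows (GRCh38.p14), and hosts and overlaps from GENCODE 29. The alternatives tried were adding 0.1 in place of 1, an FPKM floor of 1 in 2 libraries, quantile and median-ratio scaling, an eBayes trend, the replicate number as a block, each library left out and, added after seeing the data, the pseudocount of 0.1 with the trend. Plots were drawn with matplotlib 3.10.9 in Python 3.11.15.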

Additional observations from a re-analysis of the deposited data

How the results depend on the processing

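Direction was kept for 40 of the 41 genes under all 11 alternatives. PPAN was the exception (log2 fold change -0.02 with median-ratio scaling, where it did not pass). Both direction and call were kept under all of them by 28 of the 41. Between 32 and 35 genes rose under the alternatives on all libraries. Fewer passed as higher when a library was left out, both of the 41 and of all genes tested. The share of all genes tested that passed as higher moved with the setting too. It was 30.8% in the main fit, 27.1% with median-ratio scaling and 43.1% with the FPKM floor, where 35 of the 41 rose. The number of genes that fell was 1 with a pseudocount of 0.1, with an eBayes trend and with both, and 0 to 1 when a library was left out. The number past a fold of 2 and an adjusted p of 0.001 was 0 with a pseudocount of 0.1, 1 with quantile normalization, 1 with median-ratio scaling and 6 with the pseudocount of 0.1 and the trend together, and 0 to 0 when a library was left out. The median of the 41 genes was 0.55 with quantile normalization, 0.53 with median-ratio scaling and 0.56 to 0.61 when a library was left out. The change of MYC was 0.64 to 0.84 when a library was left out, and of the related lists 14 genes fell without shScr replicate 2 and 13 without any other library, in place of 21. A fit without a library has fewer values to estimate the spread, and the cause of the other changes was not tested.

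With the replicate number as a block, 32 genes rose, 2 fell and 0 passed the stricter thresholds. BYSL was the only call lost (adjusted p = 0.0625 in limma). The numbers were not shown to pair the libraries. The deviations of same-numbered libraries correlated at r = 0.099 over 10667 genes, and those of differently numbered ones at -0.099. With 2 libraries per group these are the same value with opposite sign by construction, so they do not settle the pairing. The lowest value of a gene rested on about 239 reads, and 2 libraries per group with FPKM in place of counts limit the precision of every p-value given.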
